A study of Mus musculus with 43 samples.

Results

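The genes described here make pyrimidine nucleotides, turn them into deoxynucleoside triphosphates (dNTPs) and copy DNA. They were taken from a CRISPR library of metabolic genes by a rule that uses gene names only. The list holds 36 genes with 5 single guide RNAs (sgRNAs) each, which is 180 of the 10640 sgRNAs and 36 of the 2078 genes of the library. All 36 were found in the deposited values. The library was carried by OT-I CD8+ T cells, whose receptor recognises a peptide of ovalbumin, from C57BL/6J mice that also express Cas9 from the Rosa26 locus. Cells that took up the lentiviral library bore the reporter CD90.1. They were transferred into Rosa26-Cas9 mice of 6 to 12 weeks of age, 5 days after ovalbumin-expressing KPC pancreatic cancer cells (KPC_OVA) had been injected into the pancreas. From the day of transfer these mice received 10 mg per kg of anti-PD-1 or of IgG every 2 days. An aliquot of the CD90.1+ cells was kept on the day of transfer as T0 and had only been in culture. The rest was sorted 7 days after transfer from the primary tumour, lungs, liver, peritoneal metastases, spleen, and draining and non-draining lymph nodes. Every group, T0 included, carried Cas9 and the library. T0 cells had therefore already been open to editing, and no earlier pool of the library was analysed here. Each group held 3 libraries, except liver with IgG and peritoneal metastases with IgG (2 each) and liver with anti-PD-1 (1). The readout is DNA and holds no expression of marker genes, so the sorted cell type and tissue could not be checked against markers.

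Pyrimidine bases are built de novo as UMP by CAD, DHODH and UMPS, or are recovered from uridine by kinases. UMP and CMP are then phosphorylated, CTP synthase turns UTP into CTP, and ribonucleotide reductase converts ribonucleotides into the deoxy forms. Thymidylate arises from dUMP or from salvaged thymidine, and DNA polymerases α (with primase), δ and ε use the finished dNTPs to replicate the genome, which activated CD8+ T cells do in rapid divisions.

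The sequences of the 5 sgRNAs per gene were not used here, since the values name an sgRNA only by its number. The study also designed a smaller single-cell CRISPR library, and it names sgRNAs against 2 of these genes, *Dhodh* and *Upp1*. The paper aimed that library at genes of this screen that both of its algorithms called enriched in some organ and treatment. Below, *Dhodh* is lower than T0 in the mean over groups, by another method, and the 2 results were not compared. *Dhodh* and *Upp1* are the members that passed the treatment test in the lungs, so their 6 sgRNAs are shown to place the targeted exons. The study describes them as designed anew for the smaller library, so they are not taken to be the sgRNAs whose values are given below. Each is written 5′ to 3′ in lower case, followed in capitals by the genomic PAM that the Cas9 nuclease needs, which is not part of the sgRNA.
Dhodh_gRNA1: ttgatccagagtcggcgcacCGG
Dhodh_gRNA2: gtagaaatggtcgtcccccgTGG
Dhodh_gRNA3: ataaattccgaaatccagtaGGG
Upp1_gRNA1: cggctttatacatggcgtagCGG
Upp1_gRNA2: tcccgcctgaagtgccaatgCGG
Upp1_gRNA3: tgcaacatgatgccgatggaAGG

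In GRCm38.p6 each of the 6 matched 1 site followed by such a PAM. *Dhodh* lies on the minus strand (chr8:109591343-109608673), and its sgRNAs matched the minus strand at chr8:109606277-109606296, the plus strand at chr8:109606331-109606350 and the minus strand at chr8:109603464-109603483. The first pair falls in exon 2 and the last in exon 3 of 9 of the transcript Dhodh-201. *Upp1* lies on the plus strand (chr11:9118103-9136170), and its sgRNAs matched the minus strand at chr11:9131749-9131768 in exon 5, at chr11:9133326-9133345 in exon 6 and at chr11:9133252-9133271 in exon 6 of 9 of Upp1-201. All 6 cut sites were in coding sequence.

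For each sgRNA and library the authors deposited a batch-corrected signal, from which log2(signal + 1) was taken. A gene's level is the mean of this value over its 5 sgRNAs minus the mean over the 250 nontargeting sgRNAs of the same library, so that 0 is the level of control cells. Changes are differences of levels on this log2 scale, and they understate the change of sgRNAs close to 0. Calls are Benjamini-Hochberg adjusted p-values of at most 0.05 over 2078 genes from limma, fitted to the 29 libraries of T0 and 5 organs, with the lymph nodes in a fit of their own.
The signal is not a read count, so the depth behind it is unknown and no counting interval is given. Many sgRNAs sat at a lowest value that libraries of the same replicate number shared, which covered 0 to 0.0188% of sgRNAs at T0, 10.5 to 42.6% in the lungs, 2.78 to 24.1% in the other 4 organs and 45.4 to 91.6% in the lymph nodes. Over the 5 organs, 26.2% of the values of the 36 genes were at it, against 11.5% over all genes and 7.09% for nontargeting sgRNAs. Averaged over the T0 libraries, the 36 genes had levels between -0.42 and 0.58 with a median of 0.09, and the median of all genes was 0.22. In single T0 libraries the levels ran from -0.90 (*Rrm2*) to 0.92 (*Rrm1*). The library titled peritoneal metastasis with anti-PD-1, replicate 2, carries a tissue label of spleen. It was used by its title, and results that change without it are given below. The labels call the replicates biological. The paper counts more mice per treatment than there are libraries per group, and describes separate sequencing runs. A library may thus hold cells of several mice, but nothing read here says so, nor that each came from its own mouse. Whether a replicate number marks a run is not stated either. The p-values therefore measure the spread between these libraries.

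The first comparison asked which of these genes, once targeted, were lost from the T cells between transfer and sorting. In the mean of the 10 organ and treatment groups against T0, 19 of the 36 genes fell and 0 rose, whereas 16.1% of all genes fell and 0.192% rose. Leaving out the doubtful peritoneal library also gave 19. The median change was -1.74 for the 36 genes and -0.14 for all genes. By group, the number that fell was 18 in the tumour with IgG (14.3% of all genes), 19 in the tumour with anti-PD-1 (14.4%), 15 in the lungs with IgG (16.2%) and 17 in the lungs with anti-PD-1 (17.2%). It was 16 in the liver with IgG (13.1%), 13 in the liver with anti-PD-1 (9.58%), 15 in the peritoneal metastases with IgG (13.7%), 16 there with anti-PD-1 (15.3%), and 14 in the spleen with either IgG (13.6%) or anti-PD-1 (14%). In the peritoneal metastases with anti-PD-1 it was 15 without the doubtful library. In all 10 groups 13 of the genes fell (8.37% of all genes did), 21 fell in at least 1 group (21.3%), and 15 fell in 0 groups (78.7%). The liver with anti-PD-1 is 1 library, whose spread was taken from the other groups. With only the groups compared in the fit, 24 of the 36 genes fell there and 6 rose, among 1175 of all genes called. In all 9 groups of over 1 library 13 fell as well (10.5% of all genes). A rise was called for 1 of the 36 genes, in the lungs with anti-PD-1, and for 0 in the other 9 groups, where between 0 and 1.68% of all genes rose (0.192% in the liver with IgG, 0.289% there with anti-PD-1 and 0.289% in the spleen with IgG). These 10 comparisons share the T0 libraries. Where groups are said below not to overlap, with T0 or between treatments, how many of all genes showed the same was not counted. T0 held 3 libraries. With the values as deposited, without centring on nontargeting sgRNAs, 33 genes fell in the lungs with IgG, where 1533 of all genes were called, and with the median of a gene's sgRNAs 7 to 10 fell in the tumour, the liver and the peritoneal metastases with anti-PD-1.

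Ribonucleotide reductase showed the lowest levels. *Rrm1*, its large catalytic subunit, had levels of -0.24, -0.10 and 0.92 at T0. In the 26 organ libraries its level ranged from -7.22 to -3.54 with a median of -6.07, so that all 26 were below all T0 libraries. Its mean change was -6.03 (SE 0.47, limma adjusted p = 2.89e-12), the lowest of the 36 and rank 9 from the bottom among the 2078 genes. The levels of *Rrm2*, the small subunit of dividing cells, were -0.90, -0.37 and 0.51 at T0 and -7.46 to -3.36 in the organs (median -6.28). It changed by -5.64 (SE 0.55, limma adjusted p = 2.76e-10). The 5 sgRNAs of *Rrm1* changed by -7.33 to -4.12 each, and the 5 of *Rrm2* by -6.54 to -4.60. Of the organ values of *Rrm1* 75.4% were at the shared lowest value, and of *Rrm2* 77.7%, which bounds how low their levels could be read. *Rrm2b*, the alternative small subunit that p53 induces, had organ levels from -3.60 to 0.95 and T0 levels of -0.17, 0.00 and 0.05. Its mean change of -0.91 (SE 0.47) did not pass the test (limma adjusted p = 0.326). It fell in 1 group, the spleen with anti-PD-1, by 2.12 (limma adjusted p = 0.0152).

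Among the 8 genes of thymidylate supply and deoxynucleoside salvage, 4 fell. *Dut*, the dUTPase that removes dUTP and supplies dUMP, had T0 levels of -0.72, -0.41 and 0.37 and organ levels of -7.41 to -3.70 (median -5.82). It changed by -5.57 (SE 0.43, limma adjusted p = 2.10e-12), and its 5 sgRNAs by -6.92 to -4.64 each. *Dtymk*, the kinase that phosphorylates thymidylate on the way to dTTP, had T0 levels of -0.16, 0.20 and 0.45. Its organ levels were -6.05 to -2.30 (median -4.08), for a change of -4.17 (SE 0.54, limma adjusted p = 8.04e-08). Both fell in all 10 groups without overlap between the organ and T0 libraries, a trait not counted over all genes.
The enzymes that feed *Dtymk* from either side changed less. *Tyms*, the thymidylate synthase, changed by -1.77 (SE 0.62, limma adjusted p = 0.0428), and cytosolic thymidine kinase *Tk1* by -1.81 (SE 0.54, limma adjusted p = 0.0127). For *Tk1*, 2 sgRNAs changed by -3.88 and -3.54 while the others lay between -1.22 and 0.60. The call of *Tyms* was lost without T0 replicate 1, 2 or 3 (adjusted p = 0.119, 0.174 and 0.172) and without 1 library each of tumour (IgG replicate 1), lungs (IgG 1), liver (IgG 3), peritoneal metastases (IgG 2) and spleen (IgG 1, IgG 3 or anti-PD-1 2), at adjusted p = 0.0505 to 0.0617. That of *Tk1* was lost without T0 replicate 2 (0.0684) or 3 (0.117). With the mean of all sgRNAs as the reference both were not called (*Tyms* 0.179, *Tk1* 0.141), and with the median of the sgRNAs of a gene neither was called (0.679 and 0.852). The other 4, namely deoxycytidine kinase *Dck* (-0.07), dCMP deaminase *Dctd* (-0.40), mitochondrial thymidine kinase *Tk2* (0.02) and thymidine phosphorylase *Tymp* (0.07), did not pass the test.

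All 4 genes of DNA polymerase α and primase, which lay down the primers of replication, fell in all 10 groups. *Pola1*, the catalytic subunit, had T0 levels of -0.57, -0.09 and -0.08 and organ levels of -6.26 to -2.94 (median -5.12), with a change of -4.61 (SE 0.50, limma adjusted p = 2.30e-09). *Prim1*, the catalytic primase subunit, had T0 levels of -0.89, -0.24 and -0.01 and organ levels of -5.76 to -3.22 (median -4.64), with a change of -4.14 (SE 0.44, limma adjusted p = 1.45e-09). The regulatory subunits *Prim2* and *Pola2* changed by -4.03 (SE 0.48) and -3.83 (SE 0.48). In these groups no organ library overlapped the T0 libraries for any of the 4 genes. The sgRNAs of a gene were not alike: for *Pola2* 1 sgRNA changed by -0.03 while the others changed by -3.70 to -5.94, and for *Prim1* 1 changed by -0.90 and for *Prim2* 1 by -0.60.

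DNA polymerases δ and ε split between core and small subunits. *Pold1*, the catalytic subunit of δ, had T0 levels of -0.50, -0.07 and 0.03 and organ levels of -6.78 to -3.24 (median -4.85), for a change of -4.72 (SE 0.54, limma adjusted p = 8.33e-09). *Pold2*, an accessory subunit of δ, had T0 levels of -0.55, -0.34 and 0.59 and organ levels of -6.76 to -2.19 (median -4.22), for a change of -4.11 (SE 0.56, limma adjusted p = 2.68e-07). *Pold3* changed by -3.08 (SE 0.65, limma adjusted p = 2.83e-04) and fell in 8 of the 10 groups.
The call of *Pold3* was lost with the median of the sgRNAs of a gene (adjusted p = 0.16) and without the 10% of sgRNAs lowest at T0 (0.119), and its sgRNAs ranged from -5.48 to -1.29. *Pold4*, the smallest subunit of δ, changed by -0.42 (SE 0.56) and did not pass the test. In ε, the catalytic *Pole* had T0 levels of -0.36, 0.05 and 0.62 and organ levels of -6.71 to -1.81 (median -4.67), for a change of -4.41 (SE 0.51, limma adjusted p = 1.03e-08).
*Pole2*, its accessory subunit, had T0 levels of -0.71, -0.43 and -0.07 and organ levels of -5.95 to -2.34 (median -4.78), for a change of -4.27 (SE 0.44, limma adjusted p = 1.02e-09). *Pole3* and *Pole4*, the histone-fold subunits of ε, changed by -0.51 (SE 0.50) and -0.68 (SE 0.53), did not pass the test and were called in 0 groups. Organ and T0 libraries did not overlap for *Pold1*, *Pold2*, *Pole* and *Pole2*, and did for *Pold4*, *Pole3* and *Pole4*.

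In the step from UMP to CTP, 2 of 4 genes fell. *Cmpk1*, the cytosolic UMP/CMP kinase, had T0 levels of -0.25, -0.22 and 0.64 and organ levels of -6.32 to -1.86 (median -3.48). It changed by -3.67 (SE 0.60, limma adjusted p = 5.77e-06) and fell in all 10 groups. *Ctps*, a CTP synthase, had T0 levels of 0.42, 0.46 and 0.87 and organ levels of -3.81 to -0.24 (median -2.39), all below T0.
Its mean change was -2.72 (SE 0.53, limma adjusted p = 9.22e-05), and it fell in 6 groups, those of the tumour and the lungs with either treatment, liver with IgG and peritoneal metastases with anti-PD-1. The changes of the second CTP synthase *Ctps2* (0.33) and the mitochondrial kinase *Cmpk2* (-0.13) did not pass the test. The difference of a gene and its paralog is given for 4 pairs as a description with no test, since the pairs were chosen after their values were seen. From T0 to the organs the level of *Rrm2* minus that of *Rrm2b* changed by -4.81, that of *Ctps* minus *Ctps2* by -3.14, and that of *Cmpk1* minus *Cmpk2* by -3.55. In each of these 3 pairs the 26 organ libraries were below all T0 libraries. *Tk1* minus *Tk2* changed by -1.73 and was below all T0 libraries in 23 of 26.

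Of the 3 genes of de novo UMP synthesis 2 fell, with changes closer to 0 than those of the polymerase genes that fell. *Cad*, the protein of the opening steps, had T0 levels of 0.04, 0.63 and 0.30 and organ levels of -4.27 to 1.02 (median -1.53). It changed by -1.77 (SE 0.66), which did not pass the test (limma adjusted p = 0.0717), but it fell in the tumour with IgG by 2.85 (0.021), where its levels were -2.49, -2.56 and -2.52.
*Umps*, which makes UMP from orotate, changed by -1.71 (SE 0.52, limma adjusted p = 0.0161), with T0 levels of 0.57, 0.67 and 0.09 and organ levels of -4.03 to 0.80 (median -1.39). *Dhodh*, the mitochondrial enzyme between them, changed by -1.55 (SE 0.48, limma adjusted p = 0.0177), with T0 levels of 0.41, 0.31 and 0.50 and organ levels of -3.69 to 1.45 (median -1.25). The levels of *Dhodh* and *Umps* overlapped T0 in some organs and fell in 3 groups each, both tumour groups and the lungs with anti-PD-1.
With the mean of all sgRNAs as the reference neither was called (*Dhodh* -0.90, adjusted p = 0.207, and *Umps* -1.06, 0.159), nor with the median of the sgRNAs of a gene (0.145 and 0.156) or with all 41 libraries in 1 fit (0.108 and 0.191). *Dhodh* also lost its call without T0 replicate 1, 2 or 3 (0.0849, 0.0707 and 0.104), and *Umps* without T0 replicate 1 or 2 (0.0965 and 0.114). *Cad* was called with a pseudocount of 10 (-1.55, adjusted p = 0.00535), with the nontargeting median as the reference (-2.18, 0.0425) and with the values as deposited (-2.76, 0.0019), and also without replicate 1 or 2 of the lungs with anti-PD-1 (0.0328 and 0.0453) or replicate 2 or 3 of the spleen with anti-PD-1 (0.0361 and 0.0246).

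Of the 6 genes of uridine salvage and pyrimidine breakdown 0 passed the test in the mean over groups, by adjusted or by unadjusted p. The uridine-cytidine kinases changed by -0.39 (*Uckl1*), -0.15 (*Uck1*) and 0.00 (*Uck2*), the uridine phosphorylases by 0.25 (*Upp1*) and 0.17 (*Upp2*), and *Dpyd*, which opens the breakdown of uracil and thymine, by -0.08. *Uckl1* had T0 levels of 0.27, 0.49 and 0.20 and organ levels of -1.996 to 1.02 (median -0.05), and *Uck1* T0 levels of 0.50, 0.67 and 0.30 and organ levels of -2.56 to 2.45 (median 0.42). *Dpyd* had T0 levels of 0.18, -0.07 and 0.11 and organ levels of -2.19 to 1.05 (median 0.13). For all 3, the organ libraries lay on either side of T0.

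The second comparison asked whether anti-PD-1 changed these levels. Over the 5 organs, 3 of the 36 genes passed the test, with *Dhodh* lower (0.481% of all genes were) and *Upp1* and *Pole* higher (0.866%) with anti-PD-1. Without the doubtful peritoneal library 1 of the 36 passed, and *Pole* (limma adjusted p = 0.0665) and *Upp1* (0.068) lost their calls. In the lungs *Dhodh* was lower (2.78% of the 36 genes, against 2.36% of all genes) and *Upp1* higher (2.78%, against 1.2%). The share of the 36 that was lower was thus close to that of all genes. In the tumour, liver, peritoneal metastases and spleen 0 of the 36 and 0 of all genes passed. At an unadjusted p under 0.05, 0 of the 36 passed in the tumour (14 of all genes), 5 in the liver (93), 2 in the peritoneal metastases (107) and 7 in the spleen (161). In the lungs 7 of the 36 passed at that threshold (437, or 21% of all genes), and over the 5 organs 8 did (329, or 15.8%). The treatment differences were not shown to vary between organs for any gene, since the moderated F-test of limma called 0 of 2078 genes (103 unadjusted), and 3 of the 36 had an unadjusted p under 0.05 (*Pole2*, *Pola2* and *Rrm2b*).

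*Dhodh* was lower with anti-PD-1 than with IgG over the 5 organs, with a difference of -1.37 (SE 0.33, limma adjusted p = 0.0261). In the lungs its levels were -1.64, 1.45 and -0.30 with IgG and -3.03, -2.27 and -3.56 with anti-PD-1. All libraries with anti-PD-1 were below all with IgG, and the difference was -2.79 (SE 0.64, limma adjusted p = 0.0185).
In the spleen its levels were 0.79, 0.14 and 0.49 with IgG and -1.30, -2.48 and -0.11 with anti-PD-1. In the tumour they were -1.83, -1.85 and -2.49 with IgG and -2.39, -2.16 and -3.69 with anti-PD-1. The spleen groups did not overlap while the tumour groups did, and the differences of -1.77 and -0.69 did not pass the test (limma adjusted p = 0.449 and 0.9999).
In the liver the IgG levels were -0.36 and -0.77 and the single anti-PD-1 level was -1.61. In the peritoneal metastases the levels were -0.31 and 0.35 with IgG and -0.39, -0.06 and -1.20 with anti-PD-1. At the level of sgRNAs, s_04711 had lung signals of 240, 103 and 66.7 with IgG and of 0.665, 0.546 and 2.01 with anti-PD-1, and s_04713 of 1.64, 465 and 263 with IgG and of 528, 30.6 and 29.7 with anti-PD-1. The sgRNAs of *Dhodh* thus did not all move together in a given library.
The difference over organs lost its call without replicate 3 of the tumour with anti-PD-1 (-1.28, adjusted p = 0.0565) or replicate 3 of the peritoneal metastases with IgG (-1.31, 0.0682), and that of the lungs without replicate 2 with IgG (-1.98, 0.0638). Under other settings the adjusted p ranged from 0.011 to 0.38 over organs and from 0.0167 to 0.74 in the lungs, with 5 of 10 settings calling it in each case.

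*Upp1*, which splits uridine into uracil and ribose 1-phosphate, was higher with anti-PD-1 by 1.18 over the 5 organs (SE 0.30, limma adjusted p = 0.0361). Its lung levels were -0.31, -1.76 and 0.42 with IgG and 2.58, 1.75 and 0.87 with anti-PD-1, without overlap. The lung difference was 2.29 (SE 0.59, limma adjusted p = 0.0261).
Its T0 levels were 0.18, 0.17 and -0.09, and the lungs with anti-PD-1 were above them by 1.65 (limma adjusted p = 0.0474), the only rise against T0 among the 36 genes in the 10 groups (0.962% of all genes rose there). The sgRNA s_03680 of *Upp1* reached a signal of 14823 in replicate 1 of the lungs with anti-PD-1, against 1162 and 444 in the other 2 and 519, 270 and 403 with IgG. In 8 of 10 other settings the rise against T0 was not called, among them the values as deposited (0.28, adjusted p = 0.726) and the nontargeting median as the reference (0.83, 0.325). The other 4 sgRNAs had lung signals of 0.491 to 229 with IgG and of 23.03 to 589 with anti-PD-1.
In the tumour the *Upp1* levels were -0.41, -0.29 and -0.39 with IgG and 0.28, 0.79 and 0.21 with anti-PD-1, which did not overlap, and the difference of 0.79 did not pass the test (limma adjusted p = 0.9999). In the spleen they were -0.29, 0.36 and 0.37 with IgG and 0.55, 1.06 and -0.47 with anti-PD-1, and in the peritoneal metastases -0.34 and -0.15 with IgG and 1.40, 1.53 and -0.28 with anti-PD-1. Both pairs of groups overlapped. In the liver they were -0.83 and 0.34 with IgG and 1.20 in the single library with anti-PD-1. The difference over organs was not called in 6 of 10 other settings, and that of the lungs in 3 of 10. The lung difference lost its call without replicate 1 with anti-PD-1 (1.86, adjusted p = 0.0752) or replicate 2 with IgG (1.68, 0.0996), and the rise against T0 without replicate 1 or 2 of the lungs with anti-PD-1 (0.203 and 0.0848) or T0 replicate 1, 2 or 3 (0.1, 0.104 and 0.148). Over organs the call was lost without any 1 of 14 libraries (adjusted p up to 0.0902): tumour replicates 1, 2 and 3 of either treatment, peritoneal metastases anti-PD-1 1 and 2 and IgG 2 and 3, lungs anti-PD-1 1, liver IgG 2, spleen anti-PD-1 2 and spleen IgG 3.

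*Pole* was higher with anti-PD-1 by 1.31 over the 5 organs (SE 0.35, limma adjusted p = 0.0481), a difference between low levels, since 52.3% of its organ values were at the shared lowest value. Its levels were -5.03 and -6.71 in the liver with IgG and -2.95 with anti-PD-1, and -4.96 and -5.38 in the peritoneal metastases with IgG and -3.94, -3.32 and -2.32 with anti-PD-1. In the lungs they were -3.79, -4.67 and -5.52 with IgG and -4.80, -4.91 and -1.81 with anti-PD-1, which overlap.
With a pseudocount of 10 in place of 1 the difference was 0.57 (adjusted p = 0.171), and 1 of 10 settings called it. With a replicate block it was not called (adjusted p = 0.056), and between libraries of the same organ and number the mean difference was 0.0032 for replicate 1, 0.26 for replicate 2 and 2.47 for replicate 3. It kept its call in 8 of 25 omissions of a library, namely without replicate 1 of the spleen with IgG, replicate 2 of the spleen with anti-PD-1, replicate 1 of the peritoneal metastases with anti-PD-1, replicate 2 of the liver with IgG, or replicate 1 or 2 of the lungs with either treatment, and lost it in the other 17 (adjusted p up to 0.146). *Uck2*, a uridine-cytidine kinase, was 2.33 higher in the lungs with anti-PD-1 and did not pass the test (limma adjusted p = 0.0547), with levels of -1.04, -1.39 and 0.56 against 0.97, 1.98 and 2.15. *Umps* had a difference of -0.92 over the organs and did not pass it either (limma adjusted p = 0.186).

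The third comparison set the organs against the spleen, with both treatments averaged. Per the methods, the deposited values had already been corrected with ComBat for batch effects between organs. Differences between organs, and of organs from T0, may thus have been altered before any test here, and how far was not tested. The shared lowest values had medians of 1.17, 0.64 and 0 for replicate numbers 1, 2 and 3, and so differed by replicate number. The methods name organs and not these numbers, and which batches the correction used was not tested. Of the 36 genes 1 passed the test, *Dhodh*, which was lower in the tumour than in the spleen by a difference of -1.99 (SE 0.45, limma adjusted p = 0.0381), as 0.241% of all genes were. All 6 tumour libraries, at -3.69 to -1.83, were below the 3 spleen libraries with IgG, while the spleen libraries with anti-PD-1 reached -2.48.
*Umps*, the enzyme after it, had a difference of -2.01 between tumour and spleen that did not pass the test (SE 0.49, limma adjusted p = 0.076). Its tumour levels were -2.28, -1.50 and -2.09 with IgG and -2.85, -2.73 and -3.07 with anti-PD-1, and its spleen levels were -1.29, 0.80 and 0.78 with IgG and -1.64, -1.54 and 0.45 with anti-PD-1. A moderated F-test of limma over the 5 organs called 0 of the 36 genes (0.433% of all), with *Dhodh* (adjusted p = 0.0559), *Umps* (0.0829) and *Dpyd* (0.454) at the lowest p. At an unadjusted p under 0.05 it passed 5 of the 36 and 162 of all genes.
Liver, lungs and peritoneal metastases against spleen gave 0 of the 36 genes, and 1, 8 and 3 at an unadjusted p under 0.05, against 76, 253 and 124 of all genes (after adjustment, 0.144% were higher in the liver, 0.0962% lower in the lungs and 0.144% lower in the peritoneal metastases). The tumour difference of *Dhodh* was called in 2 of 10 other settings (adjusted p from 0.0046 to 0.676) and kept its call in 2 of 12 omissions of a library, without replicate 2 of the tumour or of the spleen with anti-PD-1. Without any other library of the tumour or spleen the adjusted p was between 0.0647 and 0.237.

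In the lymph nodes 0 of the 36 genes and 0 of all genes passed the test against T0 in any of the 4 groups, while 32 to 35 of the 36 and 2015 to 2059 of all 2078 genes did with the values as deposited, without centring. At an unadjusted p under 0.05, 9 of the 36 were lower in the draining nodes with IgG, 9 with anti-PD-1, 3 in the non-draining nodes with IgG and 3 with anti-PD-1, against 171, 178, 97 and 83 of all genes. Of the node values of all genes 71.8% were at the shared lowest value, of nontargeting sgRNAs 72.1% and of the 36 genes 77.4%.
*Rrm1* had levels of -2.61, -2.24 and -2.65 in the draining nodes with IgG and -1.96, -2.29 and -3.82 with anti-PD-1. In the non-draining nodes they were -0.05, 0.51 and -1.69 with IgG and -1.10, -1.55 and -1.86 with anti-PD-1. All 6 draining node levels were below the T0 levels, and 1 of them, -3.82, lay within the range of the organs, which ended at -3.54. That level is the lowest this library could give, with all sgRNAs of *Rrm1* at the shared lowest value. Of the 60 node values of *Rrm1*, 55 were at it. How low a level at that value reads depends on the nontargeting mean subtracted. The size of any loss could thus not be read from these levels.
The change of *Rrm1* in the draining nodes with IgG was -2.69 (SE 0.92, limma adjusted p = 0.262). *Dhodh* had levels of 3.94, 2.24 and 5.37 in the draining nodes with IgG and 0.83, 1.75 and 1.83 with anti-PD-1, all above T0. The change of *Dhodh* with IgG was 3.44 and did not pass the test (limma adjusted p = 0.253). Of its 60 node values 35 were at the shared lowest value. Most nontargeting values were at it too, which lowers the mean subtracted, so a few detected sgRNAs can give a high level. Node levels ranged from -1.08 to 7.16 for *Umps* and from -2.02 to 5.80 for *Cad*.

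The genes of de novo purine synthesis in the library were counted beside these. Of these 11 genes 9 fell in the mean of the 10 groups and 0 rose, with *Ppat*, the committed step, at -5.99, *Paics* at -5.83, *Gart* at -5.48, *Adsl* at -5.17, *Pfas* at -4.80, *Adss* at -4.56, *Gmps* at -4.55, *Impdh2* at -3.99 and *Atic* at -2.98. The median of these 11 was -4.56, against -1.71 for the 3 genes of de novo UMP synthesis.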

How the data were processed

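Integrated sgRNAs were amplified and sequenced from the DNA of sorted CD90.1+ cells. Per the methods, the authors used MAGeCK to count reads and to scale them by the 250 nontargeting controls, and ComBat to correct batches between organs. The deposited values are thus a signal, with depth unknown and ComBat settings not given in the sources used here. Of 43 samples 41 carried values, since 2 were left out by the authors after quality control.

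From the deposited signal, log2(value + 1) was taken, and a gene's level is the mean of its 5 sgRNAs minus the nontargeting mean of the library. Group means were fitted with limma 3.58.1 (R 4.3.3) to 29 libraries (11 groups) and, for the nodes, to 15 libraries (5 groups, T0 included), with Benjamini-Hochberg adjustment over 2078 genes. sgRNA coordinates were matched with Python 3.11.15 to GRCm38.p6 and GENCODE annotation. Scripts were tested on simulated data.

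Members and lists were chosen with earlier results of these data known. Values per library were given for the 2 lowest members of each role and for those called above T0, by treatment or lowest in p between organs. Other pseudocounts, centrings, summaries, filters, fits, replicate blocks and omissions of a library were tried.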

Additional observations from a re-analysis of the deposited data

Results flagged for a closer look

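*Dhodh* was singled out because its level differed between organs by a test of that difference: it was lower in the tumour than in the spleen by 1.99 on the log2 scale (a change of -1.99, limma adjusted p = 0.0381). Over both treatments its levels were -1.83, -1.85, -2.49, -2.39, -2.16 and -3.69 in the tumour and 0.79, 0.14, 0.49, -1.30, -2.48 and -0.11 in the spleen, so that 1 spleen library lay within the range of the tumour. The adjusted p was 0.0559 for the test over all 5 organs. Groups held at most 3 libraries, so no library was tested for standing apart within its group.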

How the results depend on the processing

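The changes of the 19 genes that fell in the mean over groups, and of *Cad*, kept their sign under all alternatives, as did the treatment and organ differences recomputed for *Dhodh*, *Upp1*, *Upp2*, *Pole*, *Uck2* and *Umps*. In that mean 14 of the 36 genes, with main changes of -0.51 to 0.33, changed sign under at least 1 of 6 other scalings, summaries or filters (8 with the mean of all sgRNAs as reference, 6 as deposited). The 13 genes that fell in all 10 groups, with *Ctps*, kept their calls in the mean over groups. That mean called 14 to 23 of the 36 genes under other settings, with 236 to 673 of all genes (main 338), and 15 to 20 with a library left out (main 19). With the values as deposited the median change of all genes was -1.14 in place of -0.14, with the nontargeting median as reference -0.55, with the mean of all sgRNAs 0.52 and with the median of a gene's sgRNAs 0.10.

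Counts that moved by over 1.5 times were as follows. With the median of a gene's sgRNAs 7 genes were called in the tumour with IgG, 9 with anti-PD-1, 7 in the liver with either treatment and 10 in the peritoneal metastases with anti-PD-1, and the treatment test called 0 in the lungs, 1 in the liver and 0 over organs, lungs against spleen 1 and the test over organs 1. With the nontargeting median the lungs with IgG gave 23, treatment 1 in the lungs and 0 over organs, tumour against spleen 0, lungs against spleen 4 and the test over organs 3. As deposited, the lungs with IgG gave 33, treatment over organs 0, tumour against spleen 0, lungs against spleen 5, the test over organs 7, the draining nodes 34 (IgG) and 32 (anti-PD-1) and the non-draining nodes 35 with either treatment, where 2015 to 2059 of all genes were called. With only the groups compared, the liver with anti-PD-1 gave 30, treatment 0 in the lungs and over organs, tumour against spleen 2 and the draining nodes with IgG 6. With all 41 libraries in 1 fit, treatment gave 0 in the lungs and over organs, tumour against spleen 0, the draining nodes 3 (IgG) and 1 (anti-PD-1), and treatment in draining and non-draining nodes 1 and 2. A pseudocount of 10 gave 2 for tumour against spleen and 2 over organs. Tumour against spleen gave 0 with the mean of all sgRNAs, with the lowest 10% of sgRNAs left out and with shared lowest values set to 0, an alternative chosen after seeing the data that gave 1 for treatment over organs. With 1 library left out, the test over organs gave 0 to 2, lungs against spleen 0 to 1, treatment in the lungs 0 to 4, treatment over organs 0 to 4 and tumour against spleen 0 to 1. The only library of the liver with anti-PD-1 could not be left out. The causes were not tested.

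Replicate numbers were not taken to pair the libraries in the main fit, since deviations of same-numbered libraries did not all correlate above 0.1 (-0.36 to 0.27, median -0.03, 27 of 84 over 0.1, against 15 of 168 for different numbers). The share over 0.1 was larger for same numbers, and this bar cannot show that the number has no effect. With the replicate block, tumour against spleen gave 0 (*Dhodh* adjusted p = 0.0533), and *Pole* over organs (0.056) and the rise of *Upp1* in the lungs (0.0512) lost their calls, with 19 genes still called in the mean over groups. Between libraries of the same organ and number, anti-PD-1 was below IgG for *Dhodh* in 11 of 12 and above it for *Upp1* in 10 of 12 and for *Pole* in 9 of 12.

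Values at a shared lowest value limit how far a fall can be read, most of all in the lymph nodes, and the depth behind them is unknown.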
